A study of Homo sapiens with 6 samples.

Results

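A set of 10 genes of ceramide and sphingolipid metabolism was followed in the human melanoma cell line A375 under overexpression of the long non-coding RNA SLNCR. The genes were DEGS1, CERS2, CERS5, CERS6, SPTLC1, SPTLC2, SGPL1, UGCG, ASAH1 and SMPD1, which are 10 of the 18318 genes kept from the count table, and all 10 were abundant enough to be among the 12797 genes tested. DEGS1 was selected on its read counts in the comparison described here, for its difference between the groups, so its values are a description and carry no test. The other 9 were chosen by name as enzymes of the same pathway, but with earlier results of these data known.

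RNA sequencing was done on 6 libraries, 3 from A375 cells given a pcDNA3.1 plasmid that expresses wild type, full-length SLNCR and 3 from A375 cells given the vector backbone without SLNCR (empty vector). Cells of both groups were transfected with Lipofectamine 2000, a lipid reagent, and both plasmids carry a puromycin resistance gene and the CAG promoter, per the labels. RNA was taken after 48 h in medium with 2 µg/mL puromycin, which kills cells without plasmid, so each library is a pool of transiently transfected cells of 1 cell line. The design text names 3 biological replicates per condition without describing how cultures were kept apart, so p-values measure the spread between these libraries.

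Sphingolipids are built on a long-chain base. Serine palmitoyltransferase, with SPTLC1 and SPTLC2 as its large subunits, joins serine to palmitoyl-CoA, ceramide synthases (CERS genes) add a fatty acid of a length that depends on the enzyme, and the desaturase encoded by DEGS1 turns dihydroceramide into ceramide. Ceramide is then glucosylated by UGCG, made into sphingomyelin, or cut by ceramidases such as ASAH1 to sphingosine. Acid sphingomyelinase, encoded by SMPD1, returns ceramide from sphingomyelin in the lysosome, and SGPL1 cleaves sphingosine 1-phosphate, the last step of the pathway. In melanoma these lipids are known for their part in survival and in the response to stress, and gangliosides made from glucosylceramide are abundant surface lipids of melanoma cells.

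The count table gave 9287450 to 10822083 counts per SLNCR library and 9351940 to 10498711 per empty vector library. The transfected RNA, listed as LINC00673, had 1786, 2569 and 2040 counts in the SLNCR libraries and 195, 194 and 193 in the empty vector libraries, which fits the labels. The labels also call the cell type epithelial, and markers of epithelial and of melanocyte cells were each present only in part. Of 9 epithelial markers in the table, KRT7 (90 to 176 counts with SLNCR, 153 to 236 with the empty vector) and CLDN4 (40 to 54 with SLNCR, 34 to 50 with the empty vector) were present, and EPCAM and CDH1 had at most 4 counts in any library. Of 9 melanocyte and melanoma markers, MITF, CSPG4, PRAME and SOX10 (105 to 152 counts with SLNCR, 117 to 135 with the empty vector) were present, and the pigment genes PMEL, MLANA, DCT and TYRP1 had at most 16 counts in any library. Among all tested genes the fold change followed the GC content (the share of G and C bases) of the longest transcript. With the genes cut into 10 bins of equal size by GC content, the median log2 fold change was 0.24 in the lowest bin and -0.26 in the highest, so the members' fold changes are set beside the value after a per-library correction for GC content. The trend against the empty vector mean was -0.16, -0.12 and -0.25 log2 units per 10 points of GC content in SLNCR libraries 1 to 3, and 0.04, 0.0046 and -0.05 in empty vector libraries 1 to 3. Levels are given in CPM (read counts scaled to library size with TMM factors), and a gene passed at an edgeR adjusted p below 0.05.

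DEGS1 (ENSG00000143753, protein-coding, chromosome 1 from 224175756 to 224193441, plus strand, GRCh38) encodes the dihydroceramide desaturase, the enzyme that makes the double bond of ceramide. It had 169.6, 153.5 and 170.8 CPM in SLNCR libraries 1 to 3, against 124.2, 133.2 and 129.6 CPM in empty vector libraries 1 to 3. All 3 SLNCR libraries lay above all 3 empty vector libraries. The mean was 164.6 ± 9.68 CPM with SLNCR and 129.0 ± 4.52 CPM with the empty vector (SD, n = 3 each), a fold of 1.28 and a log2 fold change of 0.35 ± 0.0598 (SE). In whole cultures, a larger share of cells with the transcript and more transcript per cell cannot be told apart. After the GC correction DEGS1 stood at 0.26 on the log2 scale (SE 0.0473), and the single libraries stood at 0.31, 0.19 and 0.28 in SLNCR libraries 1 to 3 and at -0.03, 0.05 and -0.02 in empty vector libraries 1 to 3, again without overlap. Leaving out 1 library at a time gave 0.33 to 0.40 without and 0.24 to 0.30 with the GC correction. Among tested genes in the same GC bin (42.8% to 45.3%; DEGS1 has 43.6%), the median log2 fold change was 0.09, and 6.57% of them rose.

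**Figure D1:**
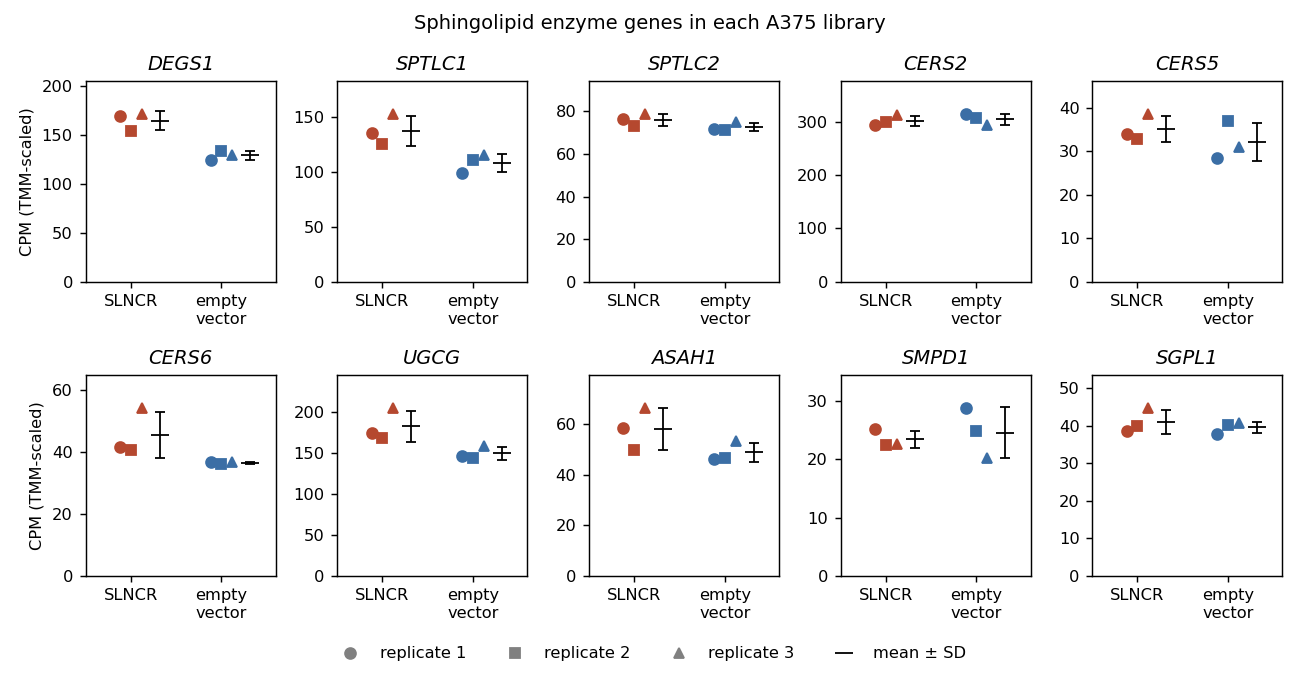
TMM-scaled CPM of the 10 sphingolipid enzyme genes in each library, SLNCR left and empty vector right, with the mean and SD of 3 libraries beside the points. DEGS1, SPTLC1, UGCG and CERS6 show no overlap between the groups, while CERS2 lies at 301.9 and 304.5 CPM on average in SLNCR and empty vector libraries.

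SPTLC1 and SPTLC2 encode the large subunits of serine palmitoyltransferase, the enzyme of the first step. SPTLC1 (ENSG00000090054, chromosome 9 from 92000087 to 92115384, minus strand) had 134.8, 124.7 and 151.9 CPM in SLNCR libraries 1 to 3, against 99.1, 110.3 and 115.1 CPM in empty vector libraries 1 to 3. The groups did not overlap, and SPTLC1 rose 1.27-fold, a log2 fold change of 0.34 (SE 0.0748 with adjusted p = 0.0139 in edgeR). SPTLC2 (ENSG00000100596, chromosome 14 from 77505997 to 77616773, minus strand) had 76.4, 73.0 and 78.5 CPM with SLNCR, against 71.9, 71.3 and 74.8 CPM with the empty vector, and its groups overlapped. Its log2 fold change was 0.06 (SE 0.0639 with adjusted p = 0.497 in edgeR). The ratio of SPTLC1 to SPTLC2 counts, which does not depend on library scaling, was 1.76, 1.71 and 1.94 in SLNCR libraries 1 to 3, against 1.38, 1.55 and 1.54 in empty vector libraries 1 to 3. This gave 1.80 ± 0.119 with SLNCR and 1.49 ± 0.0962 with the empty vector (SD, n = 3 each), with p = 0.1 in a two-sided exact permutation test, the smallest p that 3 against 3 libraries allow, and 0.1 when adjusted over the 2 ratios tested. From GC-corrected values, an alternative chosen after seeing the data, the log2 ratio was higher by 0.19 with SLNCR, against 0.28 uncorrected, and the groups still did not overlap. SPTLC1 has 39.8% GC and SPTLC2 43.8%. With the GC correction the log2 fold change of SPTLC1 was 0.17 (SE 0.0525 with adjusted p = 0.129 in edgeR), with the groups still apart, and that of SPTLC2 was -0.02 (SE 0.0547 with adjusted p = 0.904 in edgeR).

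The promoter sequences of DEGS1, SPTLC1 and SPTLC2 are shown because they include the 2 members with the highest fold changes and the partner subunit of SPTLC1. They are RefSeq sequences (GRCh38.p14), 5′ to 3′ on the strand of the gene, taken from the 250 bases before an annotated start and shown only where no exon is annotated. Capitals mark GGGCGG (the GC box) and CCAAT on either strand. The stretch of DEGS1 is chr1:224182990-224183170 on the plus strand and comes from 1 of 2 annotated starts, the stretch before the other (80.4% GC) holding 0 matches of either word.
DEGS1: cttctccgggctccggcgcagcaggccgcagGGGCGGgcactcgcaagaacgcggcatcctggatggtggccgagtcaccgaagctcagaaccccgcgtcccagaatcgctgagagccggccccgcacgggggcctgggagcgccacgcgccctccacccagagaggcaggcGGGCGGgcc
That of SPTLC1 is chr9:92115414-92115663 on the minus strand, where 2 GC boxes overlap.
SPTLC1: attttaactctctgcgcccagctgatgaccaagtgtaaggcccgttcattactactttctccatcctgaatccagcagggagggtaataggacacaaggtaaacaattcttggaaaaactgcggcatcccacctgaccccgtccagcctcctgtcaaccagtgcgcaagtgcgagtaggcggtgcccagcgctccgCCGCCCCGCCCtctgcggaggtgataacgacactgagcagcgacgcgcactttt
That of SPTLC2 is chr14:77616774-77616887 on the minus strand, with 2 CCAAT matches.
SPTLC2: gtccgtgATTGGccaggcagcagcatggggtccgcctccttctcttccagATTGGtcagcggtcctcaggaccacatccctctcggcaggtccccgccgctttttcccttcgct
The 181 bases of DEGS1 had 74.6% GC, the 250 of SPTLC1 56.4% and the 114 of SPTLC2 63.2%, so GC content of these stretches was lowest for SPTLC1 and highest for DEGS1.

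Sequences before the start were found for 8 of the 10 genes, CERS2 and ASAH1 having no entry. They have 9 windows of 250 bases, since DEGS1 has 2, both inside its gene interval given above. The windows searched include bases annotated as exon, 136 of them for SPTLC2. The GC box counted for SPTLC2 is not in the stretch shown, which holds 0. The GC box GGGCGG occurred in 8 of these 9 windows and in 42.6% of all 35116 RefSeq windows, or in at least 1 window of 8 of 8 genes and of 46.2% of all 27305 genes. CCAAT occurred in 2 of the 9 windows, those of CERS6 and SPTLC2, and in 32.0% of all windows. Because the study concerns E2F1, the E2F words TTTCGCGC, TTTGGCGC, TTTCCCGC and TTTGCCGC were searched too, and 0 of the 9 windows held one, against 2.79% of all windows. The E-box CACGTG (6.34% of windows) and the M-box TCATGTG (2.52%), which MITF can bind in pigment cells, and TATAAA (10.7%) were found in 0 of the 9 windows. All words were searched on both strands. The shares over all windows and all genes are not limited to genes tested here, to which the members all belong. No share among tested genes is given, so these shares are an unlike background for the members. A match or its absence describes only the letters of these windows.

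Of the 3 ceramide synthase genes on the list, CERS6 passed and CERS2 and CERS5 did not. CERS6 (ENSG00000172292, chromosome 2 from 168455862 to 168775137, plus strand), a synthase that prefers palmitoyl-CoA, had 41.5, 40.7 and 54.1 CPM in SLNCR libraries 1 to 3, against 36.7, 36.1 and 36.7 CPM in empty vector libraries 1 to 3. The groups did not overlap, and SLNCR replicate 3 was far above the other SLNCR libraries. CERS6 rose by 0.31 on the log2 scale (SE 0.0985 with adjusted p = 0.0417 in edgeR), but without SLNCR replicate 3 its log2 fold change was 0.17 (adjusted p = 0.16 in edgeR). The GC correction gave 0.18 (SE 0.0833 with adjusted p = 0.321 in edgeR) with all libraries and 0.07 without SLNCR replicate 3. The antisense RNA CERS6-AS1 shares 2999 exon bases with CERS6 on the opposite strand and had 20.3, 19.9 and 25.3 CPM with SLNCR, against 13.8, 16.2 and 14.3 CPM with the empty vector. It rose by 0.56 on the log2 scale (SE 0.117 with adjusted p = 0.0137 in edgeR; 0.39 with the GC correction, adjusted p = 0.101 in edgeR). The strand setting of the counts is not given in the sources used here, so reads of CERS6 and CERS6-AS1 cannot be told apart.

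CERS2 (ENSG00000143418, chromosome 1 from 150960583 to 150975004, minus strand), the synthase of very-long-chain ceramides, had 293.8, 299.6 and 312.2 CPM with SLNCR, against 313.2, 306.7 and 293.5 CPM with the empty vector. The groups overlapped, and the log2 fold change was -0.01 (SE 0.0502 with adjusted p = 0.864 in edgeR). CERS2, at 53.8% GC, stood at 0.09 with the GC correction (SE 0.0421 with adjusted p = 0.292 in edgeR), so its sign depends on the correction. CERS2 shares 948 exon bases with SETDB1 on the opposite strand, which was lower in every SLNCR library than in any empty vector library and did not pass (log2 fold change -0.18, SE 0.0719 with adjusted p = 0.0883 in edgeR). CERS5 (ENSG00000139624, chromosome 12 from 50129306 to 50167533, minus strand), which like CERS6 prefers palmitoyl-CoA, had 33.9, 32.7 and 38.4 CPM with SLNCR, against 28.4, 37.0 and 31.0 CPM with the empty vector. Its groups overlapped and its log2 fold change was 0.12 (SE 0.1 with adjusted p = 0.4 in edgeR), and 0.13 with the GC correction.

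Within a library, the CERS6 to CERS2 count ratio was 0.141, 0.136 and 0.173 in SLNCR libraries 1 to 3, against 0.117, 0.118 and 0.125 in empty vector libraries 1 to 3, with no overlap. The means were 0.15 ± 0.0202 and 0.12 ± 0.00428 in SLNCR and empty vector libraries (SD, n = 3 each), with an exact permutation p of 0.1, two-sided and again the smallest that 3 against 3 allow. CERS6 has 41.6% GC and CERS2 53.8%, and from GC-corrected values, again chosen after seeing the data, the log2 ratio differed by 0.08, against 0.31 uncorrected, and the groups overlapped (two-sided exact permutation p = 0.3). Per length, CERS2 made up 85.3% to 87.2% of the summed CERS1, CERS2, CERS5 and CERS6 signal in SLNCR libraries and 87.1% to 89.0% in empty vector libraries. CERS6 took 4.17% to 5.21% with SLNCR and 3.62% to 3.87% with the empty vector, and CERS5 8.07% to 8.90% with SLNCR and 6.86% to 8.92% with the empty vector. CERS1 took 0.556% to 0.696% with SLNCR and 0.404% to 0.456% with the empty vector. CERS2 held the largest share of these 4 in every library, and the shares of CERS6 and CERS1 did not overlap between the groups. These shares rest on the longest transcript and carry no GC correction. With all annotated exons as the length, CERS5 stood at 4.76 and CERS6 at 5.04 CPM per kilobase with the empty vector. The order of CERS5 and CERS6 therefore depends on the transcript model. CERS1 had only 25, 20 and 20 counts with SLNCR, against 16, 13 and 14 with the empty vector. It did not pass (adjusted p = 0.197 in edgeR). Over all tested genes, the levels of 38.9% lay apart between the groups in either direction.

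Of the enzymes that use ceramide, UGCG (ENSG00000148154, chromosome 9 from 111896766 to 111935369, plus strand), the glucosylceramide synthase at the entry to glycosphingolipids, rose. It had 173.9, 168.0 and 204.2 CPM in SLNCR libraries 1 to 3, against 146.4, 143.3 and 158.2 CPM in empty vector libraries 1 to 3. The groups did not overlap, and the log2 fold change was 0.28 (SE 0.0701, 1.22-fold, adjusted p = 0.0174 in edgeR). UGCG has 40.9% GC, and with the correction its log2 fold change was 0.14 (SE 0.0499 with adjusted p = 0.198 in edgeR), with the groups still apart.

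ASAH1 (ENSG00000104763, chromosome 8 from 18055992 to 18084998, minus strand), the lysosomal acid ceramidase, had 58.4, 49.8 and 66.3 CPM with SLNCR, against 46.4, 46.8 and 53.3 CPM with the empty vector. SLNCR replicate 2 lay below empty vector replicate 3, and ASAH1 did not pass (log2 fold change 0.25, SE 0.0946 with adjusted p = 0.0747 in edgeR). At 37.3% GC it is the most AT-rich of the 10 genes, and the correction took its log2 fold change to 0.03 (SE 0.0713 with adjusted p = 0.868 in edgeR). Without SLNCR replicate 2 and without the correction, ASAH1 stood at 0.35 (adjusted p = 0.00504 in edgeR).

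SMPD1 (ENSG00000166311, chromosome 11 from 6390431 to 6394998, plus strand), acid sphingomyelinase, had 25.2, 22.5 and 22.6 CPM with SLNCR, against 28.8, 24.9 and 20.2 CPM with the empty vector. The empty vector libraries spread more widely than the SLNCR libraries and enclosed them, and the log2 fold change was -0.08 (SE 0.115 with adjusted p = 0.659 in edgeR). SMPD1 is the most GC-rich of the 10 genes at 60.2%, and with the correction it stood at 0.13 (SE 0.101 with adjusted p = 0.556 in edgeR). SGPL1 (ENSG00000166224, chromosome 10 from 70815961 to 70881173, plus strand), sphingosine 1-phosphate lyase, had 38.5, 40.0 and 44.6 CPM with SLNCR, against 37.7, 40.2 and 40.6 CPM with the empty vector. Its groups overlapped, with a log2 fold change of 0.05 (SE 0.0807 with adjusted p = 0.664 in edgeR) and 0.04 with the correction.

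Of the 10 genes, 4 passed with a higher level after SLNCR (DEGS1, SPTLC1, UGCG and CERS6), 0 fell and 6 did not pass. Leaving out DEGS1, which was picked for this, 3 of 9 rose. Over all 12797 tested genes 8.84% rose and 7.67% fell, 16.5% in all. The median log2 fold change was 0.12 over the 9 genes other than DEGS1 and -0.0097 over all tested genes, and it was positive in 7 of the 9 and in 48.8% of all. In 3 of the 9 the SLNCR libraries were all above the empty vector libraries, against 19.7% of all tested genes, and groups lay apart in either direction in 38.9% of all. After the GC correction 4 of the 9 lay apart, all with SLNCR higher (SPTLC1, UGCG, CERS6 and CERS2), against 10.6% of all tested genes with SLNCR higher and 20.5% in either direction. The 4 genes that passed have a GC content of 39.8% to 43.6%, below the median of 47.9% over all tested genes. The share of tested genes that rose was 38.0% in the GC bin of ASAH1 and 24.9% in that of SPTLC1. It was 14.9% in the bin of CERS6 and UGCG and 6.57% in that of DEGS1 and SPTLC2. In the bins of SGPL1, CERS5, CERS2 and SMPD1 it was 2.35%, 0.782%, 0.704% and 0.0782%.

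Under the GC correction 0 of the 10 genes passed in edgeR, and 2 of 12797 tested genes did (0.0156%), while 4 of the 9 genes other than DEGS1 and 15.1% of all had an unadjusted p below 0.05. These 4 were SPTLC1, UGCG, CERS6 and CERS2. After the correction the log2 fold change was positive in 8 of the 9 and in 50.5% of all tested genes, with a median of 0.13 and 0.0015. LINC00673 itself had an edgeR adjusted p of 0.0539 in that fit, at an unchanged log2 fold change of 3.38, so missing the threshold there does not show that a gene did not differ. Without the correction, leaving out SLNCR replicate 1, empty vector replicate 1 or empty vector replicate 2 left 0 of the 10 genes past the threshold in edgeR, beside 1, 1 and 2 of all tested genes. At an unadjusted p below 0.05 there were 4, 3 and 4 of the 9 genes other than DEGS1 in these fits, against 28.4%, 22.9% and 26.7% of all. Without SLNCR replicate 2, SLNCR replicate 3 or empty vector replicate 3, 4, 2 and 2 of the 9 passed, against 26.1%, 11.6% and 14.5% of all, and of the 6 fits CERS6 passed in the one without SLNCR replicate 2. The uncorrected log2 fold changes in these 6 fits lay between 0.27 and 0.41 for SPTLC1 and between 0.20 and 0.34 for UGCG. With the GC correction they lay between 0.13 and 0.21 for SPTLC1 and between 0.08 and 0.16 for UGCG. With it SPTLC1 passed in 1 of the 6 fits and UGCG in 0.

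**Figure D2:**
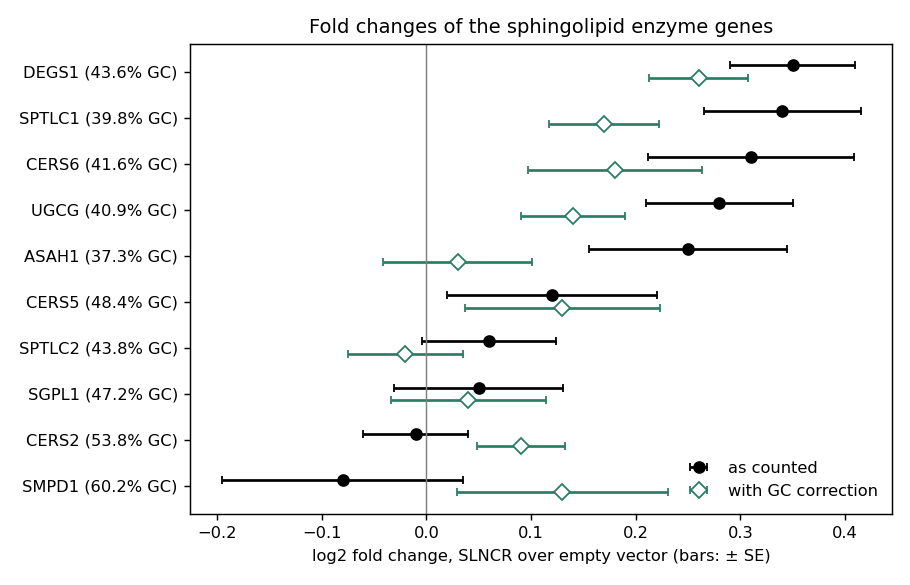
Log2 fold change of each sphingolipid enzyme gene, SLNCR over empty vector, with its SE, as counted (filled) and after the per-library GC correction (open). DEGS1 goes to 0.26 with the correction, SPTLC1 to 0.17 and ASAH1 to 0.03, while CERS2 and SMPD1 move from just below 0 to 0.09 and 0.13.

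**Figure D3:**
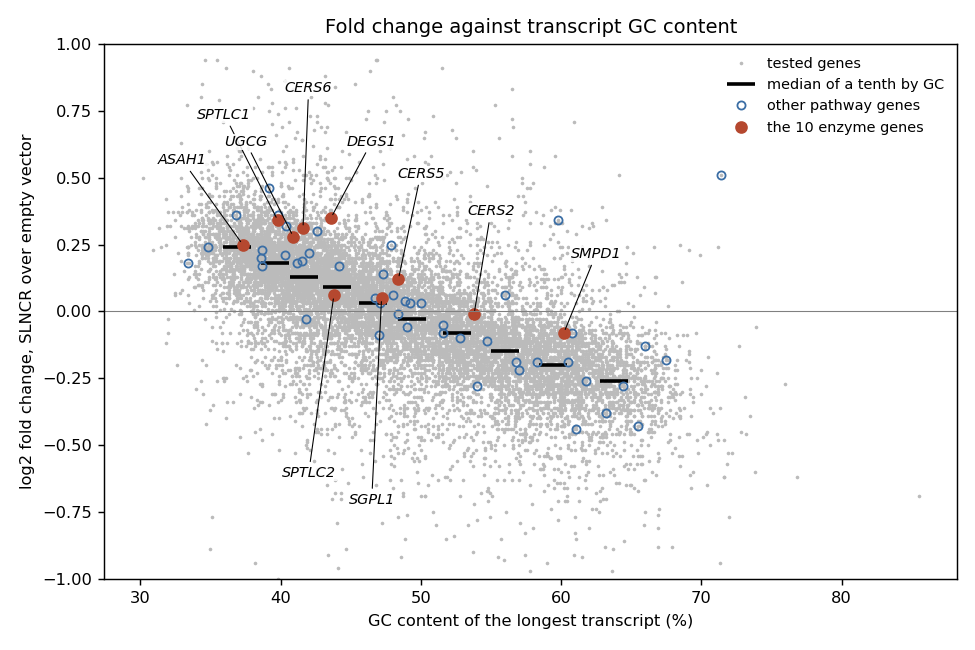
Log2 fold change, SLNCR over empty vector, against the GC content of the longest transcript for tested genes (grey, drawn between -1 and 1), the median of each of 10 GC bins (bars), other pathway genes (open) and the 10 enzyme genes (filled). The medians run from 0.24 to -0.26, and of the 10 enzyme genes SPTLC2 alone lies below the median of its bin.

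The single libraries did not move the members equally. The mean log2 difference of the 10 genes from the empty vector mean was 0.15, 0.07 and 0.28 in SLNCR libraries 1 to 3. In empty vector libraries 1 to 3 it was -0.02, 0.02 and 0.0038. DEGS1, picked for its difference between the groups, is 1 of the 10, at 0.39, 0.25 and 0.41 in SLNCR libraries 1 to 3. In 9 of the 10 genes SLNCR replicate 3 was the highest SLNCR library, as in 40.0% of all tested genes, and SMPD1, the exception, was highest in replicate 1. After the GC correction replicate 3 was highest in 7 of the 10 genes and in 38.6% of all tested genes. The same library had the steepest GC trend, and its mean log2 difference over 7 non-coding RNAs read for RNA quality (RN7SL1, RN7SL2, RN7SK, RMRP, RPPH1, MALAT1 and NEAT1) was -0.35, beside -0.15 and -0.0099 in the other SLNCR libraries (1 and 2), and 0.07, -0.0074 and -0.06 in empty vector libraries 1 to 3. The part of RNA quality in the members' values was not tested.

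Levels were compared between genes as CPM per kilobase of the longest transcript. CERS2 was the most abundant at 118.7 ± 3.70 with SLNCR and 119.7 ± 3.94 with the empty vector (SD, n = 3 each). DEGS1 followed at 78.4 ± 4.61 with SLNCR and 61.4 ± 2.15 with the empty vector. UGCG (45.4 ± 4.85 with SLNCR, 37.3 ± 1.95 with the empty vector) and SPTLC1 (46.0 ± 4.60 with SLNCR, 36.3 ± 2.77 with the empty vector) overlapped each other. These 4 genes stood well above the other 6. With the empty vector CERS5 (10.7), SMPD1 (10.1), SPTLC2 (8.89) and ASAH1 (8.51) followed, each overlapping the one before it from SMPD1 on. SGPL1 (6.88) and CERS6 (5.06) came last, overlapping neither ASAH1 nor each other. With SLNCR the order was the same except that SPTLC1 passed UGCG and ASAH1 passed SMPD1 and SPTLC2. When all annotated exons were used as the length, the order of the 4 most abundant genes was the same and ASAH1 came last, so the order of the lower 6 depends on the transcript model. The subunit gene SPTLC2 stood at 9.30 ± 0.335 with SLNCR and 8.89 ± 0.227 with the empty vector, below SPTLC1 in every library.

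**Figure D4:**
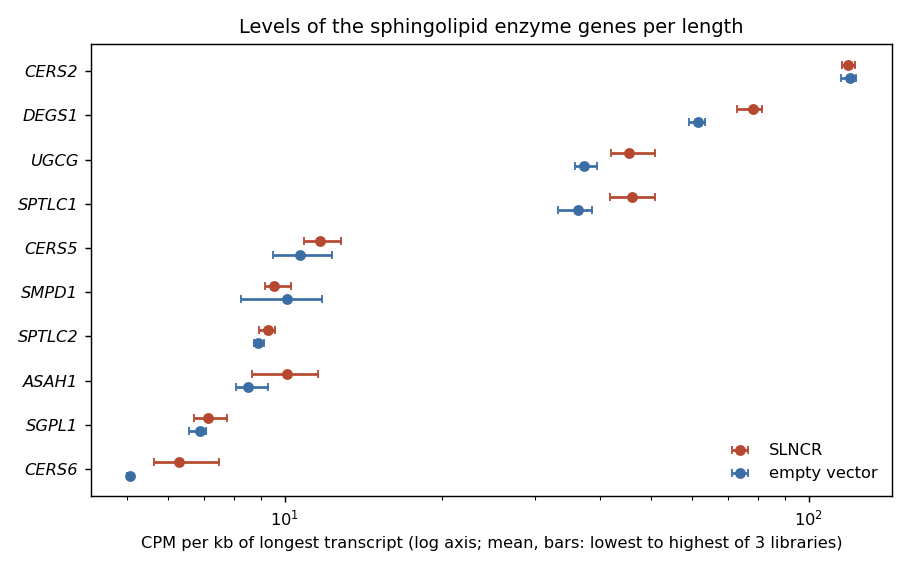
Level of each sphingolipid enzyme gene in CPM per kilobase of its longest transcript on a log axis, SLNCR above and empty vector below, as the mean with bars from the lowest to the highest of 3 libraries. CERS2, DEGS1, UGCG and SPTLC1 lie above the other 6 genes in both groups.

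The rest of the pathway was read from 60 further genes, of which 49 had a row in the table and 47 were tested. Of these 47, 2 rose, 3 fell and 42 did not pass, against 8.84% and 7.67% of all tested genes. Their median log2 fold change was 0.03, and 0.02 with the GC correction. With the correction 0 of the 47 passed in edgeR, and 3 (6.38%) had an unadjusted p below 0.05, against 15.1% of all tested genes. Without SLNCR replicate 1, empty vector replicate 1 or empty vector replicate 2 the count without correction was 0 as well, with 15, 11 and 10 of the 47 at an unadjusted p below 0.05, against 28.4%, 22.9% and 26.7% of all tested genes. Without SLNCR replicate 2 it was 12, against 26.1% of all.

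In de novo synthesis 1 of 7 further genes rose. KDSR, which reduces ketosphinganine after the first step, had 255.0, 236.6 and 269.7 CPM in SLNCR libraries 1 to 3, against 213.9, 222.9 and 231.6 CPM in empty vector libraries 1 to 3 (log2 fold change 0.19, SE 0.0575 with adjusted p = 0.0363 in edgeR; 0.05 with the GC correction). ORMDL2 and ORMDL1, which encode inhibitors of serine palmitoyltransferase, were the most abundant of those that did not pass. They stood at 0.03 and 0.24 on the log2 scale, and at 0.02 and -0.01 with the GC correction. CERS3, CERS4, DEGS2 and SPTSSB were not analysed here.

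Among genes of sphingomyelin turnover 1 of 7 rose and 1 fell. SGMS2, a sphingomyelin synthase of the plasma membrane, had 32.6, 31.4 and 36.8 CPM with SLNCR, against 24.2, 26.9 and 27.4 CPM with the empty vector, and rose by 0.36 on the log2 scale (SE 0.0914 with adjusted p = 0.0185 in edgeR). SMPD4, a neutral sphingomyelinase, had 118.5, 115.0 and 108.6 CPM with SLNCR, against 138.2, 123.7 and 127.8 CPM with the empty vector, and fell by 0.19 on the log2 scale, a sign that turns with the GC correction (SE 0.0619 with adjusted p = 0.0477 in edgeR). After the GC correction SGMS2, at 36.8% GC, stood at 0.14 (adjusted p = 0.42 in edgeR) and SMPD4, at 60.5% GC, at 0.02 (adjusted p = 0.872 in edgeR). SAMD8, which makes ceramide phosphoethanolamine, and the Golgi sphingomyelin synthase gene SGMS1 did not pass, at 0.20 and 0.30 on the log2 scale. With the GC correction SAMD8 stood at 0.0046 and SGMS1 at 0.19.

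The genes for sphingosine kinases, which make sphingosine 1-phosphate and so act upstream of SGPL1, both fell. SPHK1 had 16.1, 20.8 and 14.9 CPM in SLNCR libraries 1 to 3, against 25.1, 23.8 and 21.1 CPM in empty vector libraries 1 to 3. The groups did not overlap, although SLNCR replicate 2 and empty vector replicate 3 were close (log2 fold change -0.43, SE 0.121 with adjusted p = 0.0263 in edgeR). SPHK2 had 36.4, 37.4 and 29.6 CPM with SLNCR, against 45.5, 45.9 and 43.2 CPM with the empty vector (log2 fold change -0.38, SE 0.0887 with adjusted p = 0.0159 in edgeR). SPHK1 has 65.5% GC and SPHK2 63.2%, and with the correction they stood at -0.16 (SE 0.101 with adjusted p = 0.475 in edgeR) and -0.13 (SE 0.072 with adjusted p = 0.401 in edgeR). The other 6 tested genes of sphingosine 1-phosphate did not pass. Among them the fatty aldehyde dehydrogenase gene ALDH3A2 stood at a log2 fold change of 0.05 and the exporter gene SPNS2 at -0.28. With the GC correction ALDH3A2 stood at 0.02 and SPNS2 at -0.02.

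No further gene passed in the other roles with edgeR. Of 11 genes of glycosphingolipid synthesis beside UGCG, the most abundant were the lactosylceramide synthase genes B4GALT5 and B4GALT6, with log2 fold changes of 0.06 and 0.18. With the GC correction they stood at 0.06 and -0.09, so the sign of B4GALT6 depends on the correction. Of 11 genes of glycosphingolipid breakdown, PSAP, which encodes the saposins, stood at a log2 fold change of -0.11, and at 0.01 with the GC correction. Of 3 ceramidase genes beside ASAH1, none passed. The alkaline ceramidase genes ACER3 and ACER2 stood at 0.23 and 0.25 on the log2 scale, and at 0.04 and 0.26 with the GC correction. The neutral ceramidase gene ASAH2 had only 60 to 65 counts with SLNCR and 37 to 48 with the empty vector. Its log2 fold change was 0.46, and 0.29 with the GC correction (adjusted p = 0.461 in edgeR), where the groups overlapped.

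**Figure D5:**
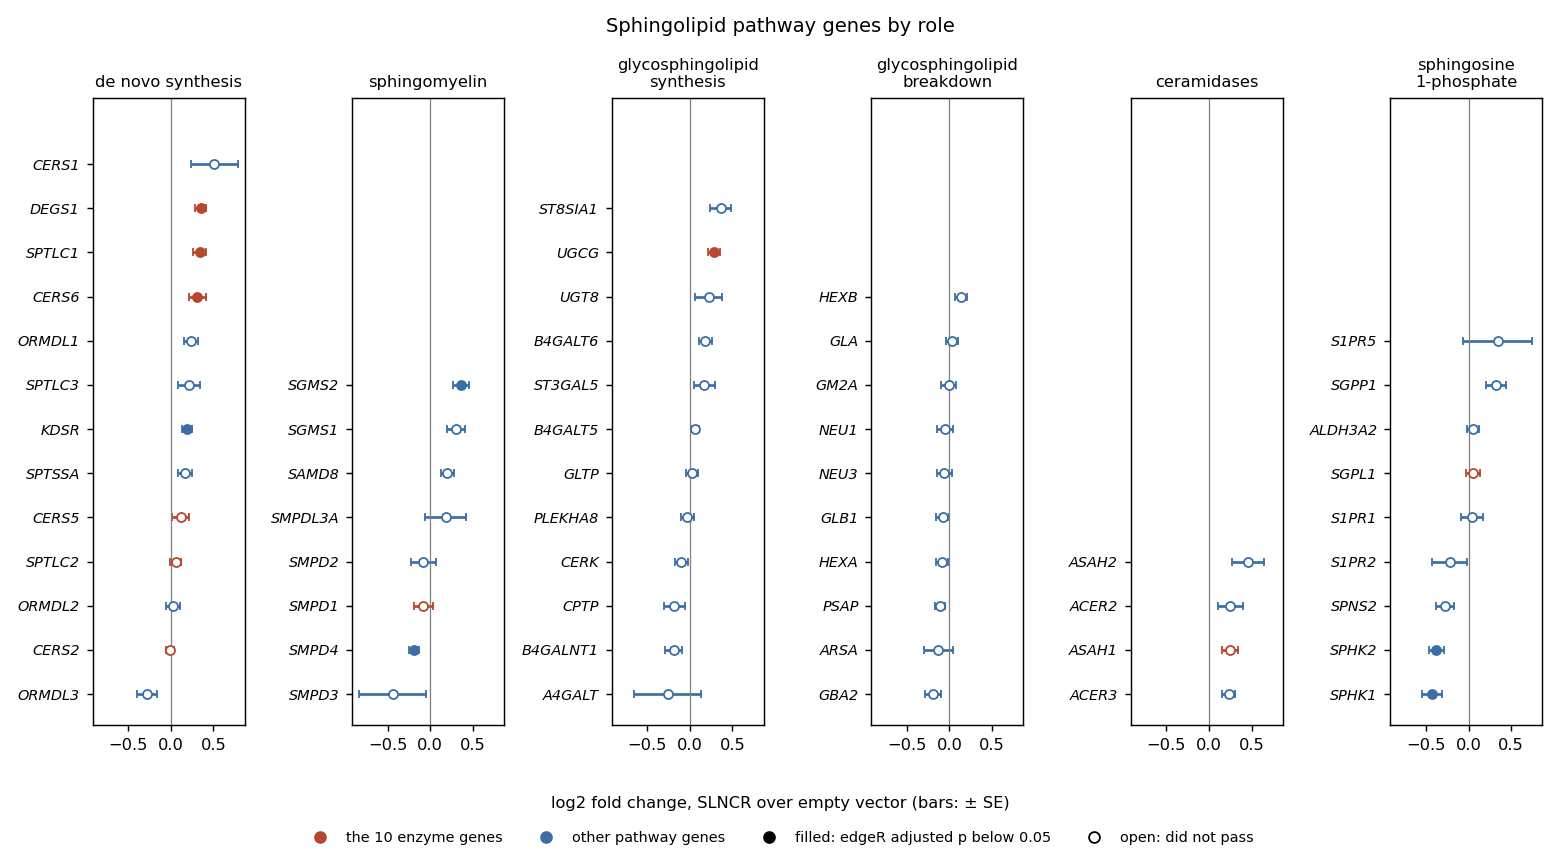
Log2 fold change with SE, SLNCR over empty vector, for the 10 enzyme genes (red) and further pathway genes (blue) by role, filled where edgeR adjusted p was below 0.05. SPTLC1, CERS6, UGCG, KDSR and SGMS2 lie to the right and SPHK1, SPHK2 and SMPD4 to the left, and DEGS1 is shown although it was picked for its change.

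The profile of DEGS1 over the 6 libraries was set beside that of the 10624 tested genes averaging 50 or more counts, by the root mean square difference of log2 CPM after each gene was centred on its own mean. No GC correction was applied to these values. The closest were MMS22L (0.0268), DAAM1 (0.0276) and CCNC (0.029), with log2 fold changes of 0.32, 0.33 and 0.38. Their GC content is 38.0%, 39.3% and 39.0%, beside 43.6% for DEGS1, and the part of the GC trend in this likeness was not tested. MMS22L encodes a replication fork repair protein, DAAM1 an actin-assembling formin and CCNC cyclin C. Among the other 9 enzyme genes SPTLC1 was the closest at 0.0674, the 223rd of the 10624, followed by UGCG at 0.0907. SMPD1 was the farthest at 0.268. The profile of DEGS1 holds the difference between the groups it was picked for, so this order is a description and carries no test.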

How the data were processed

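The 6 RNA libraries of A375 cells were compared. The values the authors deposited are raw read counts per gene, as whole numbers with unequal totals show. The upstream tools, per the submitters' processing notes, were STAR, cutadapt and DESeq2 1.24.07, on GRCh38. How each was set, which program counted, with which annotation and strandedness, is not given in the sources used here. The 1857 rows of 20238 that name no gene (2.15% to 2.59% of counts) and 63 rows identical to the row before (mean count of at least 10) were left out, leaving 18318 genes.

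Identifiers were matched to GENCODE 29 (GRCh38), which gave symbols, coordinates, and the length and GC content of the longest transcript. SLNCR and empty vector libraries were compared in R 4.3.3 with edgeR 4.0.16: TMM factors, filterByExpr, robust quasi-likelihood F-test, two-sided, Benjamini-Hochberg adjustment over 12797 genes, threshold 0.05. The standard error is the log2 fold change divided by the square root of F. Log2 CPM used a prior count of 2. The biological coefficient of variation was 5.65%. The GC correction subtracted per library a loess curve (span 0.5, degree 2) of log2 CPM deviation on GC content, fitted on genes above a mean log2 CPM of 1. Genes with no GC value, LINC00673 among them, were treated as if at the median GC content. The fit code was also run on simulated counts with larger changes than those of the members, which does not test the values given here.

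The members, gene lists and tests were chosen with earlier results of these data known. Named were the 10 members, other pathway genes that passed (at most 12), the 2 most abundant per role that did not (the values of 1 of these are not reported here and it is not drawn by role), tested genes overlapping a member, LINC00673 and the 3 genes most like DEGS1. Alternatives were RLE and upper quartile factors, other filters, DESeq2 1.42.0, limma-voom 3.58.1, the replicate number as a block, each library left out, and other thresholds. Libraries of 1 group differed by more than sampling noise (chi-square per degree of freedom 1.83 to 7.39). Libraries held 9287450 to 10822083 counts.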

Additional observations from a re-analysis of the deposited data

How the results depend on the processing

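Of the 9 members other than DEGS1, 3 passed, and 2 to 4 did with RLE or upper quartile factors, no filter, a mean count of at least 50, DESeq2, limma-voom and the replicate block, under which 13.1% (DESeq2) to 27.5% (replicate block) of all genes passed. With the GC correction 0 members passed, beside 2 genes in all and 0 further pathway genes. With the GC correction and the replicate block together 0 of these 9 passed, beside 407 genes in all and 1 further pathway gene (with DEGS1, picked for its change, the members' count is 1). At an adjusted p of 0.01 the counts were 0 members, 0 further pathway genes and 2 genes in all. At 0.10 they were 5 (DEGS1 among them), 14 and 3642. Leaving out 1 library gave 0 to 5 members (0 to 4 of the 9), 0 to 12 further pathway genes and 1 to 3366 genes in all, and with the GC correction 0 to 2, 0 to 1 and 0 to 668 (101 in all without SLNCR replicate 3). Further pathway genes numbered 11 without a filter, and 13 with the replicate block, under which 3523 genes passed in all, against 2112 without it. Same-numbered libraries had correlations of 0.0749, 0.00726 and 0.239 in their deviations from the group means, and other pairs -0.226 to 0.205. These values cannot settle whether the numbers mark a shared batch, since the GC trend of each library enters them. The numbers are not said to mark one, so the main fit did not pair the libraries.

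Of 210 values of single members under 21 alternatives, 133 kept their sign and their side of the threshold, 43 of a passing gene no longer passed, 3 newly passed and 31 changed sign. None of the 31 belongs to DEGS1, SPTLC1, UGCG, CERS6 or CERS5, and none of them passed. With the GC correction CERS2 stood at 0.09, SPTLC2 at -0.02 and SMPD1 at 0.13, and with the replicate block as well at 0.09, -0.02 and 0.13. Without a filter CERS2 was 0.0025. Without 1 library CERS2 lay between -0.04 and 0.0085 (0.007 without SLNCR replicate 1), SMPD1 between -0.2 and 0.06, and SGPL1 was -0.0071 without SLNCR replicate 3. Without 1 library and with the GC correction CERS2 lay between 0.05 and 0.12 (0.08 without empty vector replicate 3), SPTLC2 between -0.03 and -0.0049 and SMPD1 between 0.04 and 0.23 (0.08, 0.19 and 0.11 without SLNCR replicates 1 to 3 and 0.14 without empty vector replicate 2), and SGPL1 was -0.01 and ASAH1 -0.02 without SLNCR replicate 3. The cause was not tested. SMPD1 has the fewest counts of the 10 genes and the largest standard error.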
